A study of Mus musculus with 2 samples.

Results

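Cd300lg/Aqp7 capillary cells were blood capillary endothelial cells of the mouse ileum that carried RNA of Cd300lg, a cell surface protein of capillaries, or Aqp7, a channel for water and glycerol. They were chosen by unique molecular identifier (UMI) counts in each cell. A cell needed at least 500 genes, at most 15% mitochondrial UMIs and at least 5 UMIs of Flt1, Cd34, Plvap and Esam together. It could hold at most 2 UMIs of the lymphatic genes Mmrn1, Lyve1, Reln and Prox1, at most 1 of the venous genes Ackr1, Selp and Madcam1, and at most 1 of the arterial genes Sema3g, Fbln5, Stmn2, Gja5 and Bmx. Its Gpihbp1 and Aqp1 UMIs together had to match or exceed its Plvap UMIs, and it needed at least 2 UMIs of Cd300lg and Aqp7 together. These limits kept 124 of 978 filtered cells in library 1 and 610 of 6067 in library 2, 734 of 7045 in all.

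Members were compared with cells that passed the same gate but held 0 or 1 UMI of Cd300lg and Aqp7, called other Gpihbp1/Aqp1 cells (71 and 338 cells in libraries 1 and 2). They were also compared with capillary cells in which Plvap outnumbered Gpihbp1 and Aqp1, called Plvap-high cells (301 and 2051 cells). Every class was drawn from the same 2 libraries. The mice were C57Bl/6 males, wild type and 8 weeks old, and the labels name no treatment. Ileum cells free of EpCAM and CD45 and carrying CD31 were sorted, and PDPN divided blood from lymphatic endothelium, but the labels tie no cell to a sort gate. Nothing in them tells if each library had its own mice. The p-values therefore measure how far the differences between classes vary from library to library, which may be technical. The variance behind them is largely shared across genes (median prior degrees of freedom 45.76, beside 2 residual).

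Capillary endothelium hands blood-borne nutrients to the tissue around it. Gpihbp1 is the endothelial protein that carries lipoprotein lipase to the capillary lumen, where the enzyme releases fatty acids from triglyceride-rich lipoproteins. Cd36 takes up fatty acids, Fabp4 and Fabp5 bind them inside the cell, and Aqp7 passes glycerol across membranes. Plvap builds the diaphragms of fenestrae and caveolae, which are abundant in the capillaries of intestinal villi.

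Pparg, the fatty acid sensor that drives Fabp4, Cd36 and Aqp7 in fat cells, differed between the classes, so upstream sequence was searched for its binding element. Pparg binds with a partner at a direct repeat spaced by 1 base, searched as 2 copies of AGGNCA with any 1 base between them on both strands of the 250 bases before each start site (RefSeq, GRCm38.p6). This was found before 0.338% of 32851 start sites and before none of the 27 start sites listed for 21 of the 34 genes searched, which were Gpihbp1, Aqp1 and the marker genes, the largest increases of both comparisons, and Cd36, Lpl, Fabp5, Mgll, Tcf15 and Scarb1. Its core GGNCANAGG, which is contained in the longer motif, stood before 7.15% of all start sites and before 5 of these 27, in Aqp7, Aqp1, Btnl9 and Spaar. For Aqp7, 2 overlapping windows held the same site, so the 5 windows hold 4 sites. Cd300lg, Fabp4, Gpihbp1, Lpl and Angptl4 had no entry. A match is a run of letters and not a bound site. The longer motif is so rare that its absence before 27 start sites tells nothing about Pparg. Sites further off were not searched, and control by Pparg was not tested. The upstream bases of a rule gene, a marker gene and a gene found by the test are given with the core in capitals, 5′ to 3′ on the gene's own strand. They lie at chr4:41048137-41048386 (minus strand) for Aqp7, chr11:49187090-49187339 (minus strand) for Btnl9 and chr4:43729784-43730033 (plus strand) for Spaar.
Aqp7: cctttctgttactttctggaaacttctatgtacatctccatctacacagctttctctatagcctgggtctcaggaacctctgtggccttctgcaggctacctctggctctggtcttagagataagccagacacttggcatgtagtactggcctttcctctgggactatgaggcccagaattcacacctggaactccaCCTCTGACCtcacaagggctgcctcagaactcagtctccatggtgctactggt
Btnl9: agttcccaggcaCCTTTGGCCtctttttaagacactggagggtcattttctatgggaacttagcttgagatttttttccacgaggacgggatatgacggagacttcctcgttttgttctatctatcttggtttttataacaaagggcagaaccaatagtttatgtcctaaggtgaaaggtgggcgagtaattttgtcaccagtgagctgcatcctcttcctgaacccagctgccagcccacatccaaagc
Spaar: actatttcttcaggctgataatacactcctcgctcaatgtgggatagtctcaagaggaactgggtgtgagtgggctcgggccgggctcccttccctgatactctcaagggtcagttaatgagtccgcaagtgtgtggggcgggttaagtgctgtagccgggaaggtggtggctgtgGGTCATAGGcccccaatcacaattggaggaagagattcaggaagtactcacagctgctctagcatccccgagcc
In Aqp7 and Btnl9 the core was read as its reverse complement, and in Spaar as written. The Aqp7 match began 53 bases before the start site, that of Spaar 74 bases and that of Btnl9 238 bases.

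The members made up 25.0% of the gated capillary cells of library 1 (124 of 496, 95% Clopper-Pearson interval 21.2 to 29.1%) and 20.3% of those of library 2 (610 of 2999, 18.9 to 21.8%). The intervals cover counting error only. A limit of 3 UMIs in place of 2 kept 19.0% and 16.7%, since 30 and 108 members held exactly 2 UMIs of Cd300lg and Aqp7, while 36 and 175 cells just outside held exactly 1. Median depth was 3127.5 and 3557.5 UMIs per member in libraries 1 and 2, against 2548 and 2662.5 in other Gpihbp1/Aqp1 cells and 3653 and 4149 in Plvap-high cells. The class just outside was thus shallower than the members in both libraries. Library totals were 3806199 and 26645476 UMIs over 1026 and 6302 barcodes. The libraries shared 2 barcodes, and 0 of these were members in both libraries.

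The rule genes and the marker genes of these cells (Cd300lg, Aqp7, Fabp4, Timp4 and Btnl9) are described with no test, because they chose or named the cells. Levels are CPM, the UMIs of a gene scaled to a common class total of 1000000 UMIs. Cd300lg stood at 897 and 937 CPM in the members of libraries 1 and 2, against 114 and 102 CPM in other Gpihbp1/Aqp1 cells and 242 and 252 CPM in Plvap-high cells. Aqp7 stood at 513 and 553 CPM in members, against 81.7 and 78.3 CPM in other Gpihbp1/Aqp1 cells and 5.25 and 19.3 CPM in Plvap-high cells. Cd300lg was thus also carried by Plvap-high cells, 47.8% and 52.5% of which held a UMI of it, while 1.33% and 4.49% of them held a UMI of Aqp7. Among the members, 93 (75.0%) and 471 (77.2%) held both genes, 24 and 90 held Cd300lg alone, and 7 and 49 held Aqp7 alone.

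The other 3 markers were higher in members than in both other classes in each library. Fabp4, the fatty acid binding protein of capillaries and fat cells, reached 17165 and 20608 CPM in members, against 6925 and 9599.5 CPM in other Gpihbp1/Aqp1 cells and 5434 and 6417 CPM in Plvap-high cells. Timp4, an inhibitor of matrix metalloproteinases, stood at 1032 and 869.8 CPM in members, against 588 and 350.3 CPM in other Gpihbp1/Aqp1 cells and 13.1 and 9.09 CPM in Plvap-high cells. Btnl9, a butyrophilin-like surface protein, stood at 253 and 222 CPM in members, against 10.9 and 11.3 CPM in other Gpihbp1/Aqp1 cells and 44.6 and 43.7 CPM in Plvap-high cells. Btnl9 set the members furthest from the cells that shared their gate, and Timp4 furthest from Plvap-high cells. After each cell was thinned to 2000 UMIs, which left out 10 and 39 shallower members, 20.2% and 20.3% of members held a Btnl9 UMI, against 0% (0 of 49, Clopper-Pearson upper limit 7.25%) and 1.19% of other Gpihbp1/Aqp1 cells and 4.0% and 4.05% of Plvap-high cells. The unthinned shares were 24.2% and 23.8% of members, 1.41% and 1.78% of other Gpihbp1/Aqp1 cells and 3.65% and 5.70% of Plvap-high cells.

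**Figure D1:**
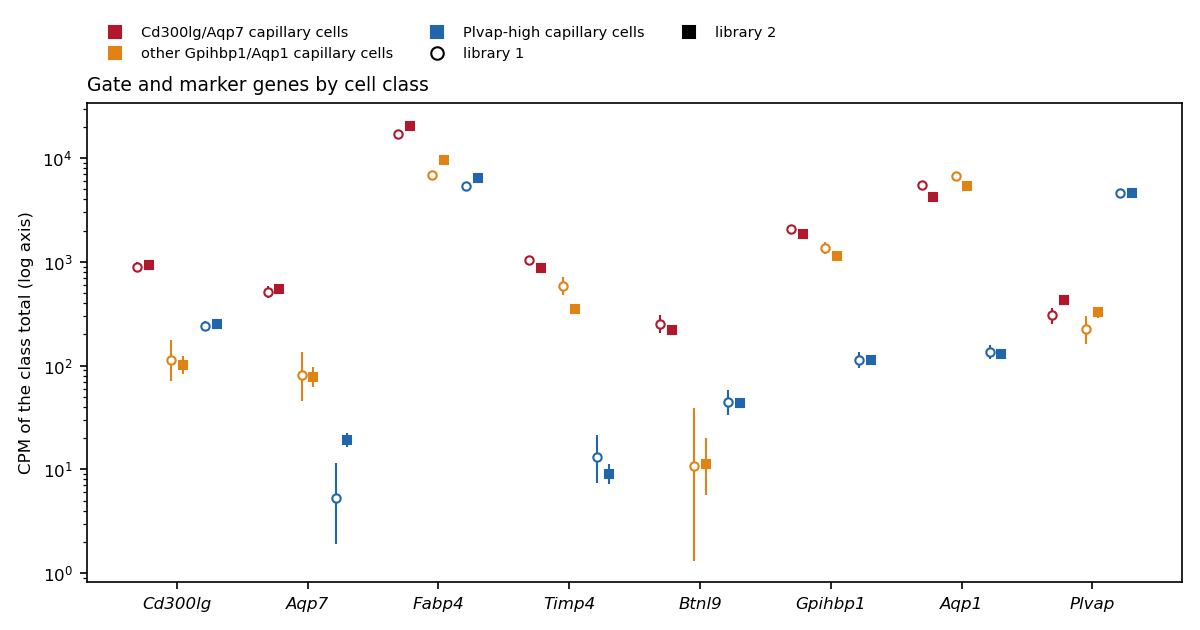
CPM of the class total (log axis) for the 2 genes that set the last limit, the 3 other markers and the 3 genes of the Plvap split, with open circles for library 1, filled squares for library 2 and bars for 95% Poisson intervals (counting error only). Btnl9 stood at 253 and 222 CPM in the Cd300lg/Aqp7 cells and at 10.9 and 11.3 CPM in the other Gpihbp1/Aqp1 cells, while Aqp1 stood at 5483 and 4237 CPM in the Cd300lg/Aqp7 cells and at 6773 and 5387 CPM in the other Gpihbp1/Aqp1 cells.

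The genes of the Plvap split were read by the gate as well. Gpihbp1 stood at 2082 and 1837 CPM in members, against 1368 and 1133 CPM in other Gpihbp1/Aqp1 cells and 114 and 113 CPM in Plvap-high cells. Aqp1, the water channel, stood at 5483 and 4237 CPM in members, below the 6773 and 5387 CPM of other Gpihbp1/Aqp1 cells and above the 136 and 129 CPM of Plvap-high cells. Plvap was at 304 and 425 CPM in members and at 223 and 326 CPM in other Gpihbp1/Aqp1 cells, against 4662 and 4660.3 CPM in Plvap-high cells. Plvap was at 0 in 68.5% and 59.3% of members. All 5 endothelial markers outside the gate (Pecam1, Cdh5, Kdr, Egfl7, Tie1) were present, and every member held a UMI of at least 1 of them.

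Markers of other cells were uneven between the classes. Without cells holding a pericyte or smooth muscle marker UMI, 1138 genes were higher and 1297 lower in members than in Plvap-high cells, and 90 higher and 137 lower than in other Gpihbp1/Aqp1 cells. Values without cells holding an adipocyte marker UMI are given for Car3, Pparg, Angptl4, Rbp7, Plin2 and Cyp4b1, and not for the other lipid genes. Against other Gpihbp1/Aqp1 cells, 159 of 226 calls were also called without such cells. The part of the other marker lists was not tested. All 6 adipocyte markers (Adipoq, Plin1, Lep, Cidec, Cfd, Retn) had UMIs in members, summing to 34.9 and 52.7 CPM and found in 5 (4.03%) and 43 (7.05%) members, against 0 and 1 of the other Gpihbp1/Aqp1 cells and 1 and 8 of the Plvap-high cells, whose sums ran from 0 to 1.77 CPM. Pericyte and smooth muscle markers were found in 11.3% and 11.8% of members, against 2.82% and 6.51% of other Gpihbp1/Aqp1 cells and 4.98% and 6.05% of Plvap-high cells, with sums of 388 and 96.6 CPM, 10.9 and 1321 CPM, and 42.0 and 82.6 CPM in these classes. Fibroblast markers summed to 116 and 51.4 CPM in members, against 5.45 and 1548 CPM in other Gpihbp1/Aqp1 cells, where 4 cells of library 2 held 1255 of 1502 UMIs, and 15.8 and 176 CPM in Plvap-high cells. Epithelial marker sums ran from 29.0 to 48.8 CPM in members, with Epcam at 0, against 17.5 to 38.1 CPM in other Gpihbp1/Aqp1 cells and 10.5 to 619.6 CPM in Plvap-high cells. Several of these sums lay mostly in few cells. In library 1, 4 members held 154 of 167 pericyte and smooth muscle UMIs, and 4 held 49 of 50 fibroblast UMIs. In library 2, 4 other Gpihbp1/Aqp1 cells held 1130 of 1282 pericyte and smooth muscle UMIs. Among Plvap-high cells of library 2, 4 held 1183 of 1583 fibroblast UMIs and 4 held 5388 of 5588 epithelial UMIs. Leukocyte marker sums were at most 46.0 CPM in all 3 classes. In library 2, 4 members held 9892 of the 9895 haemoglobin UMIs of members, so haemoglobin genes are not read.

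The first comparison set members against Plvap-high cells, the capillary contrast of the rule. Sums of UMIs per library and class entered the quasi-likelihood test of edgeR, in which a gene passed at a Benjamini-Hochberg adjusted p below 0.05 over the 9243 genes tested. The 23 genes read by the gate or used as markers were left out. Genes that vary together with them stayed in, so the counts describe cells that the gate had already parted and nothing is read from them. Of the genes tested, 1064 (11.5%) were higher in members and 1312 (14.2%) lower, 25.7% in either direction, so that 44.8% of calls were higher. Without scaling beyond the class total 60.1% of calls were higher, because the fold changes of all genes shifted by a median of 0.123 (log2), and changes are read relative to that shift.

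The largest increases of members over Plvap-high cells included a lipase, a homeobox factor, a claudin and a BMP ligand. Lpl, the lipase that Gpihbp1 carries, stood at 548 and 377 CPM in members, against 12.3 and 7.43 CPM in Plvap-high cells, a log2 fold change of 5.48 ± 0.16 (SE; edgeR adjusted p = 1.75e-31). Meox2, a homeobox transcription factor of capillaries that handle fatty acids, stood at 418 and 367 CPM in members, against 4.38 and 5.88 CPM (log2 5.92 ± 0.17). Cldn5, the main claudin of endothelial tight junctions, stood at 1752 and 924 CPM in members, against 7.0 and 19.4 CPM (log2 5.93 ± 0.57, edgeR adjusted p = 0.0246). Bmp6, a ligand of BMP receptors, stood at 184 and 168 CPM in members, against 6.13 and 2.55 CPM (log2 5.64 ± 0.22). In each of these 4 genes, chosen for their size, both member values were over both Plvap-high values, as in 33.7% of all genes tested, and the members of library 1 stood above those of library 2, by the widest margin in Cldn5.

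The other 8 of the 12 largest increases were Samd5 (log2 6.14 ± 0.29), Lnx1, Fmo1, Coro6, Ptger4, Car3, Cyp4b1 and Auts2, with log2 fold changes from 4.92 to 6.14. Fmo1 and Cyp4b1 are oxidising enzymes that act on xenobiotics and, for Cyp4b1, fatty acids. Cyp4b1 stood at 197 and 192 CPM in members, against 0.875 and 6.21 CPM in Plvap-high cells (log2 5.04 ± 0.25). Ptger4 is a receptor for prostaglandin E2 and stood at 153 and 94.2 CPM in members, against 1.75 and 2.55 CPM (log2 5.24 ± 0.25). Car3, a carbonic anhydrase abundant in fat cells and muscle, stood at 62.7 and 51.4 CPM in members, against 0 and 1.55 CPM (log2 5.15 ± 0.39). Of the Car3 UMIs of members, 17 of 27 in library 1 and 100 of 124 in library 2 lay in the 5 and 43 cells with an adipocyte marker UMI. Without such cells Car3 still passed, at log2 4.76 (edgeR adjusted p = 1.15e-05).

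Most of these genes were also present in other Gpihbp1/Aqp1 cells, which share the split from Plvap-high cells. Meox2 was at 327 and 315 CPM there, Samd5 at 125 and 95.8 CPM, Lnx1 at 158 and 113 CPM and Auts2 at 142 and 107 CPM. Against those cells the members differed by log2 0.27 ± 0.13 in Meox2, -0.08 ± 0.21 in Samd5, -0.09 ± 0.19 in Lnx1 and 0.10 ± 0.19 in Auts2, and none of these 4 passed. Of the 12 genes, Lpl, Coro6, Car3 and Cyp4b1 passed in that comparison too.

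The 12 largest decreases included a homeobox factor, a prostaglandin importer and a growth factor binding protein. Nkx2-3, a homeobox factor of gut vessels, stood at 39.5 and 43.1 CPM in members, against 596 and 596 CPM in Plvap-high cells (log2 -3.95 ± 0.15, edgeR adjusted p = 1.58e-26). Slco2a1, a prostaglandin importer, stood at 9.29 and 76.3 CPM in members, against 1742 and 1997 CPM (log2 -5.22 ± 0.52, edgeR adjusted p = 0.0235). Cmah, which makes a sialic acid form, stood at 0 and 6.64 CPM in members, against 267 and 196 CPM (log2 -5.34 ± 0.26). Igfbp4, which binds insulin-like growth factors, stood at 11.6 and 35.7 CPM in members, against 937 and 825 CPM (log2 -4.98 ± 0.63, edgeR adjusted p = 0.0406). In these 4 genes, chosen the same way, both member values were under both Plvap-high values, as in 20.3% of all genes tested. In other Gpihbp1/Aqp1 cells Nkx2-3 was at 43.6 and 77.3 CPM. The remaining decreases were Col13a1, Tspan8, Ehd3, Serpine2, Cd24a, Tnfaip2, P2ry6 and Lrrc3b, from log2 -4.66 to -3.91.

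**Figure D2:**
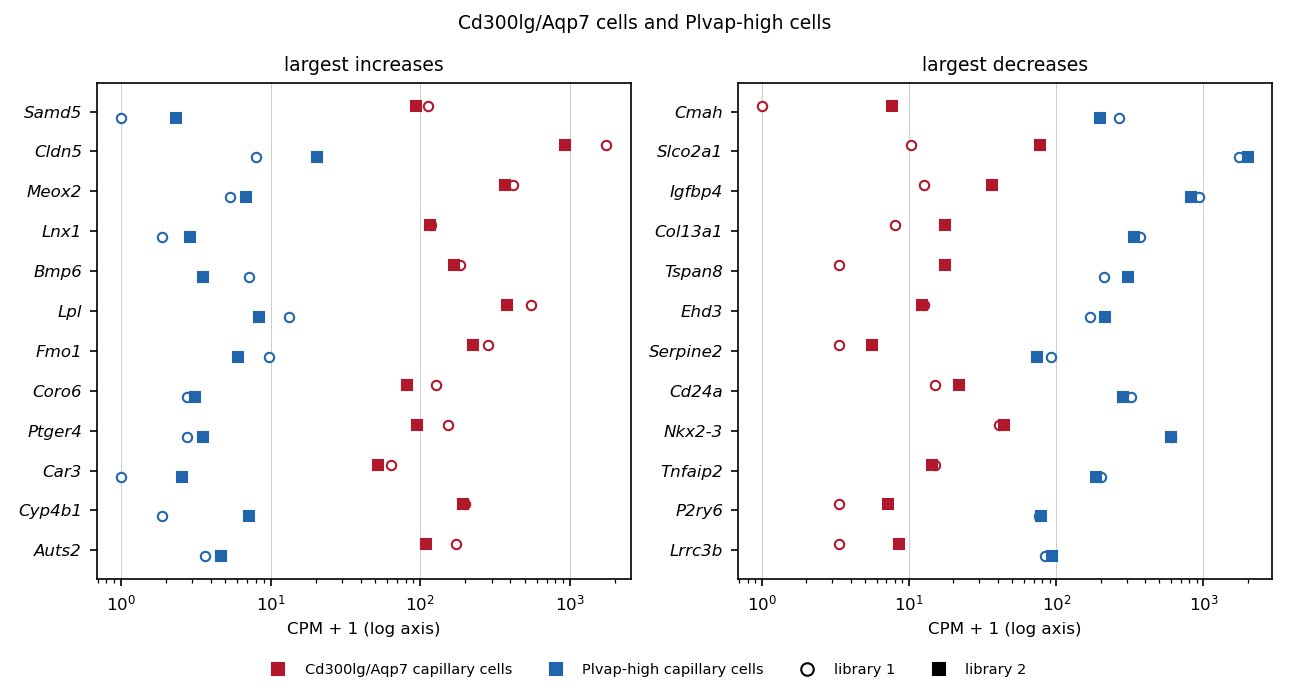
CPM plus 1 (log axis) of the 12 largest increases and 12 largest decreases of the Cd300lg/Aqp7 cells against Plvap-high cells, with open circles for library 1 and filled squares for library 2. In each of these genes, chosen for the size of the difference, both member values lie on 1 side of both Plvap-high values, as for Meox2 with 418 and 367 CPM in members and 4.38 and 5.88 CPM in Plvap-high cells.

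Genes of lipid uptake were mixed in direction. Over all genes tested, 11.5% were higher in members than in Plvap-high cells and 14.2% lower. List counts near these shares say nothing particular about a list. Of the 15 measured, 7 were higher in members, 3 lower and 5 did not pass, with a median log2 fold change of 0.23 beside 0.02 over all genes tested. Beside Lpl, the fatty acid transporter Cd36 stood at 4229 and 4158 CPM in members, against 1260.5 and 1268 CPM in Plvap-high cells (log2 1.62 ± 0.10). Angptl4, a secreted inhibitor of lipoprotein lipase, stood at 112 and 54.8 CPM in members, against 2.63 and 3.55 CPM (log2 4.08 ± 0.29). Both the lipase and its inhibitor were thus higher in members. The lipoprotein receptor Scarb1, Fabp5, the fatty acid activating enzyme Acsl1 and the retinol-binding protein Rbp7 rose by log2 0.50, 0.55, 1.32 and 0.42. The cholesterol exporter Abca1 (log2 -1.13 ± 0.12) and Slc27a3 (log2 -1.07 ± 0.26) were among those that fell.

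Genes that store or burn lipid were read from separate lists, beside 11.5% higher and 14.2% lower over all genes tested. Of 14 genes of lipid droplets, glycerol and triglyceride, 3 were higher, 2 lower and 9 did not pass (median log2 -0.01). The lipid droplet coat gene Plin2 (log2 0.82 ± 0.17) and the lipases Pnpla2 (log2 0.78 ± 0.14) and Lipe (log2 0.52 ± 0.12) were the 3 that rose. Of 17 genes of fatty acid oxidation, 1 passed, Acaa2 (log2 0.60 ± 0.17), with a median of 0.18. All 3 increases in lipid droplet genes exceeded the 0.123 shift between scalings.

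Among 12 transcription factors tied to lipid or capillary identity, Pparg, Meox2, Tcf15 and Nr1h3 were higher in members and Meox1, Cebpb and Srebf1 lower. Over all genes tested, 11.5% were higher and 14.2% lower. Pparg stood at 76.7 and 102 CPM in members, against 10.5 and 4.88 CPM in Plvap-high cells (log2 3.94 ± 0.24, edgeR adjusted p = 4.09e-18). Tcf15, the partner of Meox2 in the control of fatty acid uptake by heart capillaries, stood at 685 and 749 CPM in members, against 234 and 195 CPM (log2 1.67 ± 0.11). Of 25 endothelial transcription factors, 8 were higher and 5 lower, led by Nkx2-3, Prdm1 (log2 -2.66 ± 0.18) and Tshz2 (log2 2.60 ± 0.15).

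Caveolar genes went both ways, where 11.5% of all genes tested were higher and 14.2% lower. Of 13 genes of fenestrae, caveolae and transcytosis, 6 were higher and 5 lower (median log2 0.36). The caveolins Cav1 (log2 1.10 ± 0.10) and Cav2 (log2 1.23 ± 0.11), the cavins Cavin1 (log2 1.33 ± 0.11) and Cavin2 (log2 1.58 ± 0.10), Ehd2 and Dnm3 were higher. Cavin3 (log2 -1.29 ± 0.12), Ehd4 (log2 -2.41 ± 0.12), Dysf, Vwa1 and Nrp1 were lower. Cavin2 stood at 2128 and 1840.0 CPM in members, against 661 and 566 CPM in Plvap-high cells.

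Of 16 junction genes, 8 were higher and 3 lower (median log2 0.48), where 11.5% of all genes tested were higher and 14.2% lower. Among the higher were Cldn5, the tight junction scaffold Tjp1, the cadherins Cdh5 and Cdh13, Jam2, Cd93 and Ceacam1, while Jam3 and the connexins Gja1 and Gja4 were lower. Cdh13, a cadherin that binds adiponectin, stood at 346 and 235 CPM in members, against 15.8 and 15.9 CPM in Plvap-high cells (log2 3.86 ± 0.15). Of 11 ABC transporters, 5 were higher and 2 lower. Abcb1a, an efflux pump of the blood-brain barrier, stood at 674 and 509.8 CPM in members, against 189 and 126 CPM (log2 1.83 ± 0.11).

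Signalling lists held genes of both directions, where 11.5% of all genes tested were higher and 14.2% lower. Of 17 BMP and TGF-beta genes, 7 were higher, among them Bmp4 (log2 2.98 ± 0.33), Bmp6 and the BMP targets Id1, Id2 and Id3, and 7 lower, among them the receptors Tgfbr2 (log2 -3.07 ± 0.13), Bmpr2 and Acvrl1. Of 19 VEGF, angiopoietin and apelin genes, 5 were higher and 7 lower, with the tip cell gene Esm1 at 20.9 and 33.6 CPM in members, against 325 and 333 CPM in Plvap-high cells (log2 -3.55 ± 0.16), and with Angpt2, a Tie2 ligand, higher (log2 2.39 ± 0.25). Of 14 Notch genes, 3 were higher, led by the ligand Jag2 (log2 1.11 ± 0.13), and 3 lower, led by the target Hey2 (log2 -4.50 ± 0.43). Of 20 arterial genes, 5 were higher and 9 lower, and of 13 venous genes, 3 were higher, led by Apoe (log2 2.24 ± 0.11), and 4 lower.

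In several lists few or no genes were higher, where 11.5% of all genes tested were higher and 14.2% lower. In lists this short, 0 higher is near the share over all genes. Of 15 coagulation and fibrinolysis genes, 9 were lower and 1 higher (median log2 -1.05), among them the plasminogen activator Plat at 27.9 and 35.7 CPM in members, against 256 and 244 CPM in Plvap-high cells (log2 -2.97 ± 0.16). In edgeR 0 glycolysis genes, 0 mitochondrial transcripts and 0 MHC class I genes were higher, with 0 of them higher at an unadjusted p below 0.05 and 0 in DESeq2. Lower were 8 of 15 glycolysis genes, 9 of 11 mitochondrial transcripts and 6 of 14 MHC class I genes, with medians of -0.48, -0.43 and -0.31 (log2), which without scaling were -0.36, -0.32 and -0.19. Of 33 interferon response genes, 13 were higher and 8 lower, and without scaling 16 were higher and 4 lower. Rsad2 led the increases (log2 1.58 ± 0.13). Median mitochondrial shares were 1.84% and 1.96% of UMIs in members, against 2.48% and 2.71% in Plvap-high cells.

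Of 19 water, ion and solute transporters, 10 were lower and 4 higher, where 14.2% of all genes tested were lower and 11.5% higher. The nucleoside transporter Slc28a2 stood at 318 and 233 CPM in members, against 21.0 and 16 CPM in Plvap-high cells (log2 3.76 ± 0.15), while the lactate transporter Slc16a1 fell (log2 -2.74 ± 0.20). Of 26 basement membrane and matrix genes, 10 were lower, among them Col15a1 (log2 -3.54 ± 0.14), and 6 higher, led by Fbln2 (log2 3.02 ± 0.14). Of 19 tip cell and Plvap capillary genes, a list drawn from earlier results of these libraries, 9 were lower and 5 higher. Of 15 vasoactive genes, 4 were higher, among them endothelin Edn1 (log2 1.43 ± 0.15), and 5 lower, led by Ace (log2 -2.77 ± 0.15).

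**Figure D3:**
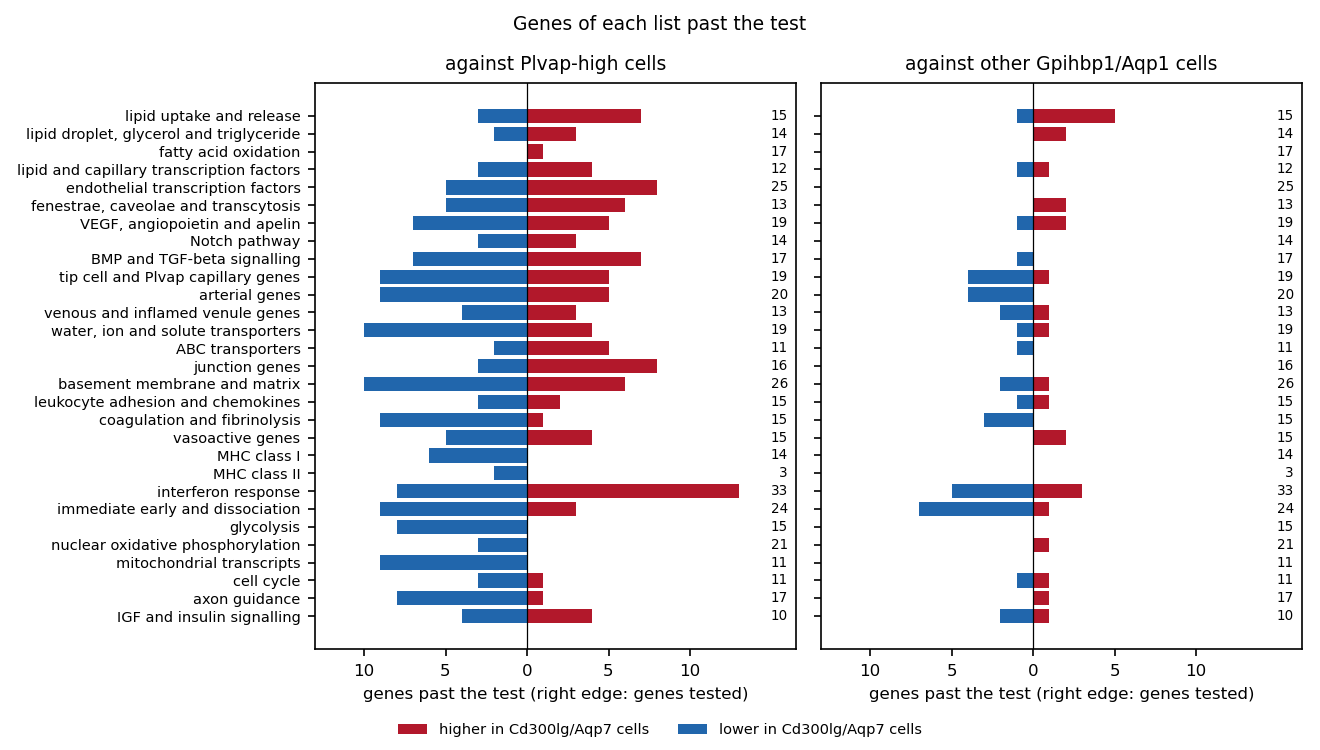
Number of genes of each list past the edgeR threshold, with bars to the right for genes higher and to the left for genes lower in the Cd300lg/Aqp7 cells, against Plvap-high cells (left panel) and other Gpihbp1/Aqp1 cells (right panel), and the genes tested at the right edge. Of the 15 lipid uptake genes 7 were higher against Plvap-high cells and 5 against other Gpihbp1/Aqp1 cells, and of the 16 junction genes 8 were higher against Plvap-high cells. Over all genes tested, 11.5% were higher and 14.2% lower in the left comparison, and 1.04% and 1.41% in the right.

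The second comparison set members against the other Gpihbp1/Aqp1 cells, whose gate differs in the last limit alone. That limit is a raw UMI count. The members were also deeper and more often held a pericyte or smooth muscle marker UMI. Of the 9243 genes tested, 96 (1.04%) were higher in members and 130 (1.41%) lower, 2.45% in either direction. The same member sums enter both comparisons. Among cells of 2500 to 7500 UMIs, 50 genes were higher and 78 lower. DESeq2 called 22 higher and 35 lower, and without the library as a block edgeR called 14 higher and 9 lower, so most calls depend on the tool and on the block.

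The largest increases over the other Gpihbp1/Aqp1 cells included Pparg, Angptl4, Cyp4b1, Rbp7 and Plin2. Pparg stood at 76.7 and 102 CPM in members, against 16.3 and 22.7 CPM in other Gpihbp1/Aqp1 cells (log2 2.16 ± 0.31, edgeR adjusted p = 3.95e-06). Angptl4 stood at 112 and 54.8 CPM in members, against 5.45 and 4.12 CPM (log2 3.90 ± 0.48). Cyp4b1 stood at 197 and 192 CPM in members, against 10.9 and 44.3 CPM (log2 2.38 ± 0.28). In these 3 genes, chosen for their size, both member values were over both of the other class, as in 19.1% of all genes tested. Rbp7, the retinol-binding protein, stood at 144 and 166 CPM in members, against 27.2 and 51.5 CPM (log2 1.81 ± 0.21). Plin2 stood at 109 and 76.3 CPM in members, against 32.7 and 31.9 CPM (log2 1.38 ± 0.26). Rbp7 and Plin2 were likewise apart in both libraries.

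Fat cells also make Pparg, Angptl4, Plin2, Fabp4 and Aqp7, and adipocyte markers were higher in members. Without the cells that held an adipocyte marker UMI, Pparg (log2 2.11), Angptl4 (3.74), Rbp7 (1.69), Plin2 (1.24) and Cyp4b1 (2.24, edgeR adjusted p = 0.0241) passed. Fat cell RNA in members without such a UMI was not measured, and its part was not tested. Car3, at 62.7 and 51.4 CPM in members against 0 and 5.15 CPM in other Gpihbp1/Aqp1 cells (log2 3.66 ± 0.54, edgeR adjusted p = 7.10e-06), did not pass without them (log2 3.87, edgeR adjusted p = 0.126). Without these cells 64 genes were higher and 97 lower.

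The other 6 of the 12 largest increases were Spaar, Vwa3a, Hrct1, Prag1, Tpst1 and Plpp1. Spaar encodes a small peptide that regulates amino acid sensing and stood at 83.6 and 80.5 CPM in members, against 21.8 and 20.6 CPM in other Gpihbp1/Aqp1 cells (log2 1.94 ± 0.31). Hrct1 stood at 86.0 and 75.1 CPM in members, against 0 and 28.8 CPM (log2 1.71 ± 0.35). Both lie on the plus strand of chromosome 4 (GENCODE vM21, GRCm38), Hrct1 at chr4:43727188-43728639 and Spaar at chr4:43730034-43759462, with 1394 bases between them, so the 2 genes are close neighbours. Plpp1, a phosphatase of lipid phosphates, stood at 172 and 283 CPM in members, against 87.2 and 113 CPM (log2 1.25 ± 0.17).

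Of the 15 lipid uptake genes, 5 were higher (Cd36, Lpl, Fabp5, Angptl4, Rbp7), 1 lower (Abca1) and 9 did not pass, with a median log2 fold change of 0.26 beside 0.00 over all genes tested. Over all genes tested, 1.04% were higher in members than in other Gpihbp1/Aqp1 cells and 1.41% lower. Cd36 stood at 4229 and 4158 CPM in members, against 2561 and 2482 CPM in other Gpihbp1/Aqp1 cells (log2 0.75 ± 0.10). Fabp5 stood at 750.5 and 1086 CPM in members, against 523 and 586 CPM (log2 0.77 ± 0.12). Lpl stood at 548 and 377 CPM in members, against 392 and 239 CPM (log2 0.61 ± 0.13), so that the member value of library 2 lay below the other value of library 1. Mgll, the lipase that completes the release of glycerol, stood at 1573 and 1478 CPM in members, against 1046 and 897 CPM (log2 0.68 ± 0.11), and was not past the test against Plvap-high cells (log2 -0.21 ± 0.10). Apoe, the lipoprotein component, stood at 799 and 753 CPM in members, against 425 and 359 CPM (log2 1.02 ± 0.12). Of 17 fatty acid oxidation genes edgeR called 0, with 4 higher at an unadjusted p below 0.05, and DESeq2 called 0 too.

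The largest decreases included a cytokine, a clotting factor carrier and a transcription factor of the interferon response. Il6, a cytokine, stood at 23.2 and 36.9 CPM in members, against 163 and 232 CPM in other Gpihbp1/Aqp1 cells (log2 -2.65 ± 0.19, edgeR adjusted p = 1.91e-14). Vwf, the clotting factor carrier of larger vessels, stood at 137 and 154 CPM in members, against 332 and 332 CPM (log2 -1.14 ± 0.15). Irf8, a transcription factor of the interferon response, stood at 86.0 and 80.5 CPM in members, against 256 and 163 CPM (log2 -1.16 ± 0.18). In these 3 genes, chosen for their size, both member values were under both of the other class, as in 17.5% of all genes tested. The rest were Adamts4, Sulf1, Pcp4l1, Csrnp1, Csrp2, Arid5a, Rgs16, Bcl3 and Bhlhe40, from log2 -1.73 to -0.99. Arid5a, which stabilises Il6 RNA, stood at 153 and 163 CPM in members, against 371 and 321 CPM (log2 -1.05 ± 0.14), and Bcl3 is a co-factor of NF-kappaB.

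Of 24 immediate early and dissociation genes, which are induced when tissue is digested into cells, 7 were lower (Fosb, Jund, Ier3, Atf3, Socs3, Hspa1a, Hspa1b) and Hspb1 was higher, with a median log2 of -0.30. Against Plvap-high cells 9 of the 24 were lower and 3 higher (Jun, Dusp1, Btg2), with a median log2 of -0.20. Of all genes tested, 1.41% were lower and 1.04% higher than in other Gpihbp1/Aqp1 cells. Against Plvap-high cells these shares were 14.2% and 11.5%. Atf3 stood at 574 and 521 CPM in members, against 1155 and 796 CPM in other Gpihbp1/Aqp1 cells (log2 -0.76 ± 0.12). Socs3, a brake on cytokine signalling, stood at 669 and 793 CPM in members, against 1171 and 1074 CPM (log2 -0.57 ± 0.11). Of 33 interferon response genes, 5 were lower (Ifit1, Isg15, Irf1, Irf8, Iigp1) and 3 higher (Ifi35, Ly6c1, Rsad2). With no scaling 1 was higher and 5 were lower. The part of cell handling in the decreases was not tested.

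Several lists held no call, where 2.45% of all genes were called, so that 0 calls is near the share over all genes. Of 25 endothelial transcription factors, 14 Notch genes and 16 junction genes, edgeR called 0 in either direction, with 6, 2 and 4 at an unadjusted p below 0.05, and DESeq2 called 0, 1 and 0. The lists of MHC class I, glycolysis, mitochondrial and fatty acid oxidation genes held 0 calls in edgeR and in DESeq2 too, with 4, 2, 1 and 4 genes at an unadjusted p below 0.05 in edgeR. The difference in Cldn5 was log2 0.91 ± 0.46 and that in Tcf15 0.38 ± 0.12, neither of which passed. Of 20 arterial genes, 4 were lower (Fn1, Vegfc, Clu, Alpl) and 0 higher, with 0 higher at an unadjusted p below 0.05. DESeq2 called 0 of the 20 in either direction. Igfbp3 stood at 358 and 414 CPM in members, against 796 and 691 CPM in other Gpihbp1/Aqp1 cells (log2 -0.88 ± 0.12). The fibroblast genes Dcn and Lum and the genes Serping1 and Timp2, which fibroblasts also express, passed as lower in members, beside the 4 cells of library 2 that held most fibroblast marker UMIs. Dcn was at 0 and 17.0 CPM in members, against 0 and 764 CPM. In library 1 alone Lum and Serping1 went the other way, at log2 1.73 and 2.99.

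**Figure D4:**
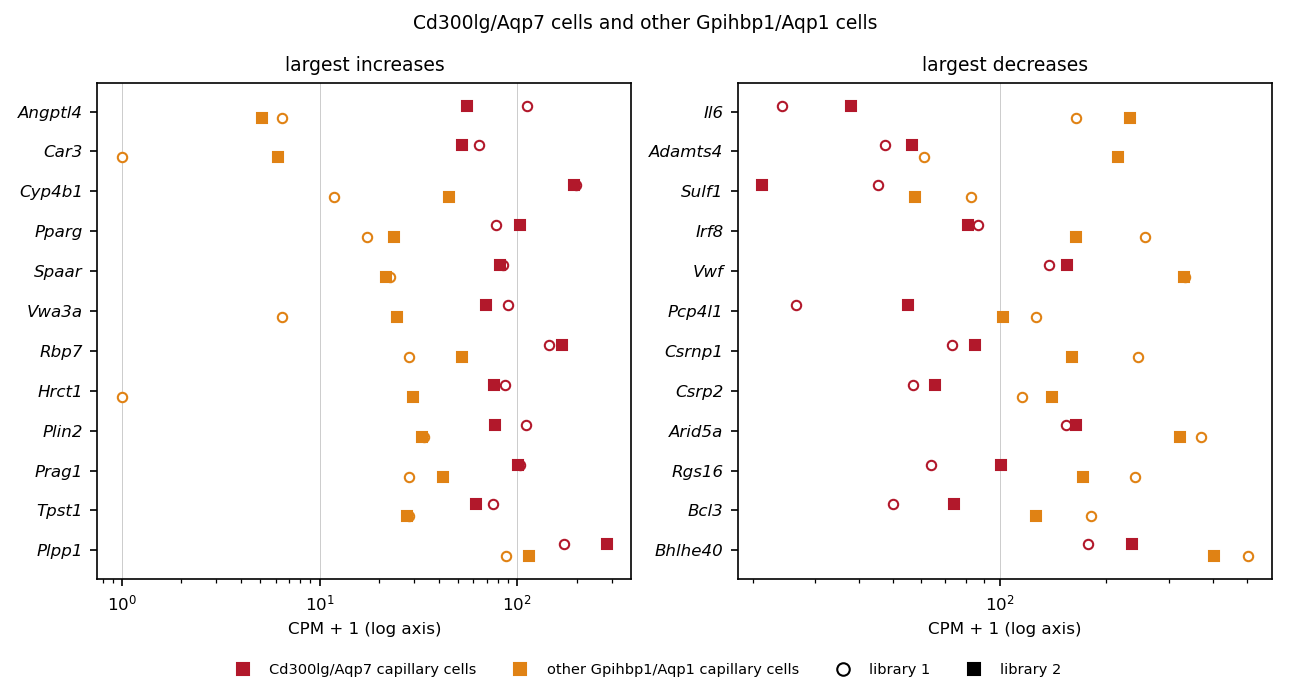
CPM plus 1 (log axis) of the 12 largest increases and 12 largest decreases of the Cd300lg/Aqp7 cells against the other Gpihbp1/Aqp1 cells, with open circles for library 1 and filled squares for library 2. Pparg stood at 76.7 and 102 CPM in members against 16.3 and 22.7 CPM, and Il6 at 23.2 and 36.9 CPM against 163 and 232 CPM.

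Within the Gpihbp1/Aqp1 gate, levels were read in steps of Cd300lg and Aqp7 UMIs per cell as a description with no test. The steps use the count that set the limit for members. Cyp4b1, Lpl, Vwf and Il6 had passed the test across that limit, so their directions along the steps were partly set in advance. From 0 UMIs through 1, 2, 3 to 4, 5 to 9 and 10 or more, the steps held 35, 36, 30, 43, 42 and 9 cells in library 1 and 163, 175, 108, 204, 198 and 100 in library 2. Median depth ran from 2251.5 to 5645 UMIs in library 1 and from 2545 to 4672 in library 2, highest in the last step of each, so depth moved with the steps and its part was not tested. The last step of library 1 rests on 9 cells.

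Fabp4, Btnl9 and Cyp4b1, the first 2 of them markers of these cells, were highest at the last step. Fabp4 stood at 7052, 6787, 12842, 12325, 18602 and 36807 CPM along the steps of library 1 and at 7496, 11569, 13067, 13892, 21099 and 32957 CPM along those of library 2. Btnl9 stood at 0, 22.8, 79.3, 155, 344 and 633 CPM in library 1 and at 8.52, 14.0, 38.4, 49.3, 249.9 and 511 CPM in library 2. Cyp4b1 stood at 0, 22.8, 56.6, 161, 272 and 359 CPM in library 1 and at 34.1, 53.9, 50.2, 60.5, 192 and 444 CPM in library 2. This held in both libraries. Txnip, which binds thioredoxin and restrains glucose uptake, also stood highest at the last step, at 1371 and 1213 CPM, against 376 and 433 CPM at 0 UMIs.

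Aqp1, and Vwf and Il6 from the genes lower in members, were lower in the last step than at 0 UMIs. In neither library did Aqp1 fall at every step. Aqp1 stood at 7073, 6445, 7406, 5582, 4924 and 3227 CPM along the steps of library 1 and at 4535, 6183, 4910.2, 5448, 4382 and 2091 CPM along those of library 2. Vwf was at 42.2 and 39.2 CPM in cells with 10 or more UMIs, against 407 and 328 CPM at 0 UMIs. Il6 was at 21.1 and 16 CPM at the last step, against 177 and 281 CPM at 0 UMIs. All 3 genes were lowest at the last step of library 2, and Aqp1 and Vwf were lowest there in library 1 too. The last step of library 1 holds few cells, so its Vwf and Il6 levels rest on very few UMIs.

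Meox2, Lpl and Tcf15 were present at every step. Meox2 stood between 308 and 439 CPM over the steps of library 1 and between 277 and 387 CPM over those of library 2. Lpl stood at 344 and 188 CPM at 0 UMIs and at 591 and 451 CPM in the last step. Tcf15 stood at 417 and 522 CPM at 0 UMIs and at 823 and 766 CPM in the last step.

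Members with Cd300lg alone and with Aqp7 alone were not tested against each other, because library 1 held only 7 with Aqp7 alone. Fabp4 stood at 17641 and 22495 CPM in members with both genes, 16627 and 13695 CPM in those with Cd300lg alone and 12129 and 11898 CPM in those with Aqp7 alone. Btnl9 stood at 289.5 and 259 CPM in members with both genes, 159 and 90.1 CPM in those with Cd300lg alone and 0 and 37.1 CPM in those with Aqp7 alone. Members with both genes were the highest in both markers in each library. The groups were split by the rule genes Cd300lg and Aqp7, and Fabp4 and Btnl9 are markers of these cells. Their order was thus partly set in advance, and nothing is read from it. The depth of the groups was not compared.

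**Figure D5:**
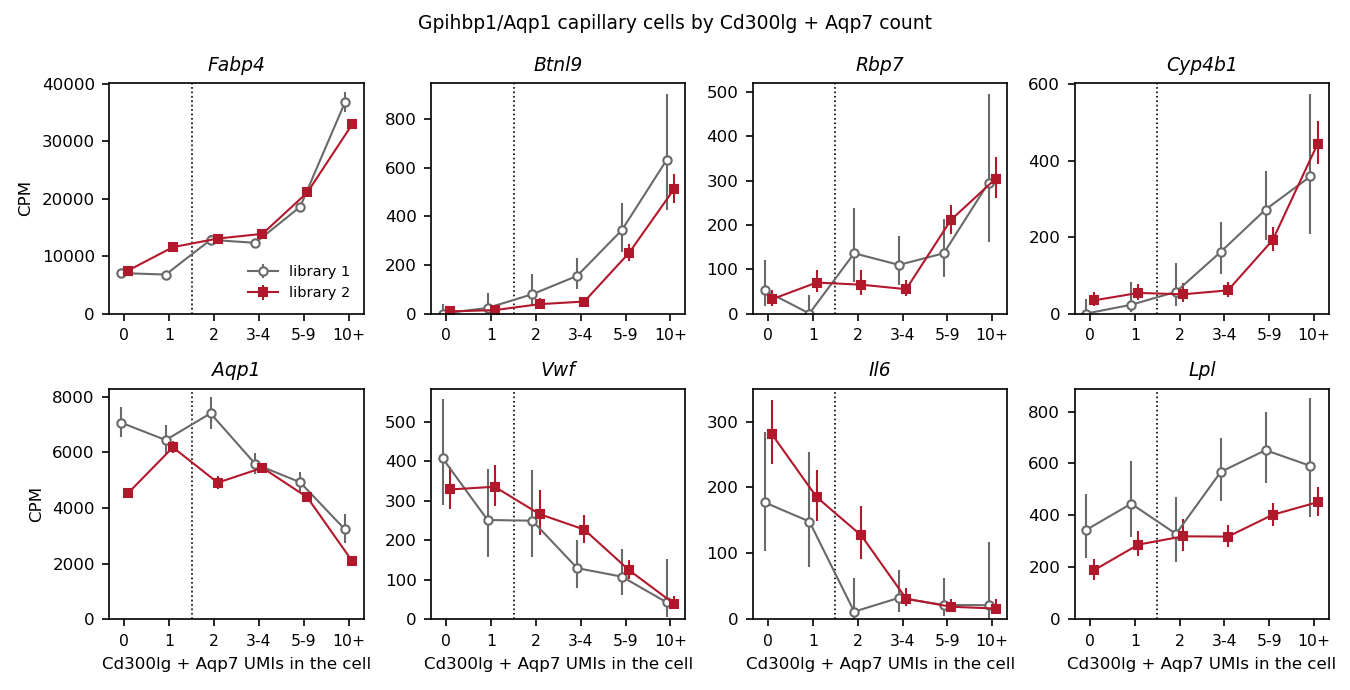
CPM of 8 genes in cells of the Gpihbp1/Aqp1 gate by their Cd300lg plus Aqp7 UMIs (0, 1, 2, 3 to 4, 5 to 9, 10 or more), with open circles for library 1, filled squares for library 2, bars for 95% Poisson intervals (counting error only) and a dotted line at the limit for members. Fabp4 stood at 36807 and 32957 CPM in the last step and at 7052 and 7496 CPM at 0 UMIs, while Aqp1 stood at 3227 and 2091 CPM in the last step.

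The label of lipid-handling capillary cells rests on its rule genes, and beyond them Cd36, Lpl, Fabp5, Angptl4, Rbp7 and Pparg were higher in members than in either other capillary class. Outside the capillaries, Fabp4 averaged 7098 ± 1187 CPM in cells of the arterial gate, 3656 ± 2037 CPM in cells of the venous gate and 1065 ± 428 CPM in cells of the lymphatic gate, against 18887 ± 2434 CPM in members (SD, n = 2 libraries). Cyp4b1 was carried by cells of the lymphatic gate as well, at 266 CPM on average, against 195 CPM in members.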

How the data were processed

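Single-cell RNA from mouse ileum was measured in 2 libraries with the 10x 3′ kit, per the labels' protocols. The deposited matrices hold UMI counts per gene and cell, made by the authors with bcl2fastq 2.2 and Cell Ranger 3.1.0 on mm10, per the submitters' processing notes. Other read filters are not given in the sources used here.

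From these counts, classes of cells were gated by the limits given above, and UMIs were summed per library and class. The members, the gene lists and the tests were chosen with earlier results of these data known. The 6 sums were fitted with edgeR 4.0.16 (R 4.3.3): TMM scaling, filterByExpr with a minimum count of 10, glmQLFit robust with the library as a block, 2 residual degrees of freedom, and Benjamini-Hochberg adjustment at 0.05. The block stands because all classes of a library came from 1 sample. The fitting steps were tested on simulated data. SE is the log2 fold change divided by the root of F. CPM is the gene's share of the class total scaled to 1000000 UMIs. Depth was 3806199 and 26645476 UMIs, so library 1 gives the wider intervals; Clopper-Pearson and Poisson 95% intervals cover counting error only. Scrublet marked 4 and 18 cells (0.409% and 0.297%) and was taken not to have worked, so no doublet was removed.

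Named genes were the 12 largest increases and 12 largest decreases of each comparison among genes past the test, with 50 CPM or more in whichever class was higher and 1 direction in both libraries, and up to 4 passing members of each list with the largest change. Other genes are named to complete a list or a count and were chosen after their values were seen. Alternatives were other scalings, DESeq2 1.42.0, no filter, no block, other depth, doublet and gate limits, each library alone, and classes without cells holding pericyte, smooth muscle or adipocyte marker UMIs. Some genes of the lists are counted but not reported by name here.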

Additional observations from a re-analysis of the deposited data

How the results depend on the processing

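Against Plvap-high cells (1064 genes higher, 1312 lower), DESeq2 called 467 higher and 569 lower, and equal numbers of cells per class gave 657 and 808. Against other Gpihbp1/Aqp1 cells (96 higher, 130 lower), DESeq2 called 22 and 35, thinning to 2000 UMIs gave 50 and 71, and cells of 2500 to 7500 UMIs gave 50 and 78. With no filter on low counts 226 were lower, and with the gate read on thinned counts 237 were lower. Without the library as a replicate block, 611 genes were higher and 706 lower than in Plvap-high cells, and 14 higher and 9 lower than in other Gpihbp1/Aqp1 cells. Of 68 named calls in that comparison, 26 held in DESeq2, which gave 43 of them a value, and 19 without the block. Of 127 named calls against Plvap-high cells, between 101 and 127 held under each setting that allows a test. Each library alone allows none. Without library 1, 85 of the 127 values stayed within 1 SD between libraries and 42 moved, and without library 2, 67 stayed, 57 moved and 3 turned. In the other comparison 63 of 68 stayed and 5 moved without library 1, and 21 stayed, 43 moved and 4 turned without library 2.

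The members' share, 25.0% and 20.3%, was 19.0% and 16.7% with at least 3 UMIs of Cd300lg and Aqp7, and 19.5% and 14.7% with the gate read on thinned counts. The mean share of 22.7% was 20.3% to 25.0% with each library left out.

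Directions turned in a few genes of low or uneven counts. Each pair of log2 fold changes is given with library 1 left out and then with library 2 left out. Against Plvap-high cells they ran from -0.83 to 0.029 in Mcm3, -1.61 to 0.83 in Lum and 6.61 to -1.46 in Hbb-bs. Those against other Gpihbp1/Aqp1 cells ran from -1.21 to 0.31 in Cebpb, -1.99 to 0.31 in Tgfb2, -4.27 to 2.99 in Serping1 and -3.73 to 1.73 in Lum. Dcn was at 0.30 against Plvap-high cells with at least 2 UMIs of Cd300lg and Aqp7 and at 0.045 without cells holding pericyte or smooth muscle markers. With the gate read on thinned counts, Hbb-bs was at -4.38 against Plvap-high cells and at -11.48 against other Gpihbp1/Aqp1 cells, Ccnd1 at -0.16 and Apln at -2.54. With at least 4 UMIs Apln was at -1.89. The cause was not tested. The alternatives on pericyte, smooth muscle and adipocyte markers and on Plvap-high cells with at least 2 UMIs were chosen after seeing the data. The counts of genes have no value with a library left out, since 1 library leaves no residual degrees of freedom.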

Other observations

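In lists not yet described, insulin and insulin-like growth factor genes went both ways against Plvap-high cells, with 4 of 10 higher (Igf1r, Insr, Igf2r, Sgk1) and 4 lower. Igfbp7 (log2 -1.63) and Igfbp3 (log2 -2.10) were among the lower. Of 17 axon guidance genes, 8 were lower, led by the semaphorin Sema3f (log2 -2.23), and 1 higher, the ephrin Efnb1 (log2 1.44), and without scaling 4 were higher. Of 11 cell cycle genes, 3 were lower, led by Top2a (log2 -3.42), and Ccnd2 was higher. Of 15 genes of leukocyte adhesion and chemokines, Cxcl9 (log2 2.75) and Cxcl1 (log2 1.72) were higher and 3 lower. Of 21 nuclear genes of oxidative phosphorylation, 3 were lower and 0 higher, and without scaling 1 was higher and 0 lower. These folds are from edgeR against Plvap-high cells, where 11.5% of all genes tested were higher and 14.2% lower.

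Against other Gpihbp1/Aqp1 cells, edgeR called Efnb1 (log2 0.94), Sgk1 (log2 0.61), the adenosine receptor Adora2a (log2 2.15) and the natriuretic peptide receptor Npr3 (log2 2.46) higher, and the insulin receptor Insr (log2 -0.74) lower. Npr3 was lower than in Plvap-high cells, and Insr was higher than in them.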
